A study of Mus musculus with 4 samples.

Results

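Glycolysis was followed through 10 genes of the 22730 gene symbols in the transcript tables: the glucose transporter gene Slc2a1, the hexokinase genes Hk1 and Hk2, the phosphoglucose isomerase gene Gpi1, the phosphofructokinase genes Pfkl, Pfkm and Pfkp, the aldolase gene Aldoa, the muscle pyruvate kinase gene, listed as Pkm2, and the lactate dehydrogenase gene Ldha. They were chosen by symbol, with no measured value in the rule but with earlier results of these data known. They hold 16 of the 28283 transcript rows and 1491 of the 1921627 exon junctions listed, 160 of the 1491 marked as known and 1331 as putative.

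The study compared thymocytes of hnRNP L KO mice with thymocytes of wild-type (WT) mice, 2 mice and 2 libraries in each group. hnRNP L is an RNA-binding protein that takes part in choosing which exons of a transcript are kept. The labels give all 4 mice one mixed genetic background, made of C57BL/6, CD45.1, an LckCre transgene and, as a reporter allele, Gt(ROSA)26Sortm4(ACTB-tdTomato,-EGFP)Luo. The Lck promoter drives Cre in developing T cells, so a deletion made by it would spare other cells of the thymus. The sources used here give neither the carriers of Cre nor the deleted part of Hnrnpl, nor the age and sex of the mice.

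Glycolysis turns glucose into pyruvate, and lactate dehydrogenase turns pyruvate into lactate. Phosphofructokinase catalyses the committed step, and its subunits come from separate liver (Pfkl), muscle (Pfkm) and platelet (Pfkp) genes that assemble into mixed enzymes. The muscle pyruvate kinase gene carries a pair of exons, 9 and 10, of which a transcript keeps one: exon 9 gives the form called PKM1 and exon 10 the form called PKM2, the form of proliferating cells. Dividing thymocytes are known for high glucose use.

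The libraries held 69061265 and 75485061 mapped reads in KO replicates 1 and 2, and 99782558 and 122619310 in WT replicates 1 and 2, and all comparisons rest on 2 mice a group. Hnrnpl itself, taken over its whole listed transcript, was at 467 and 208 CPM (counts scaled to library size by TMM) in the KO libraries. It was at 854 and 813 CPM in the WT libraries. KO replicate 1 thus kept 56.0% and KO replicate 2 kept 25.0% of the WT mean. The log2 fold change of KO over WT was -1.30 (SE 0.42, edgeR unadjusted p of 0.0350, adjusted p = 0.486). Hnrnpl itself therefore did not pass the adjusted threshold. WT replicate 1 had 8.23% of its transcript reads on small RNA genes, against 1.13% to 2.14% in the other libraries. The Y-linked gene Ddx3y had 4116 reads in KO replicate 1 and 1 read in KO replicate 2, against 17 and 1 reads in WT, so the sexes of the KO mice differ. The X-linked gene Xist had 222 and 87390 reads in KO, against 57852 and 85249 reads in WT, so KO replicate 1 stood apart from the other libraries. None of the 10 glycolysis genes lies on a sex chromosome, but the part of sex in their differences was not tested.

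Marker genes of thymocytes and of other cells that a thymus sample could hold were read in the same fit. No marker found in the tables was at 0 in all 4 libraries and 0 passed the adjusted threshold. The markers with an unadjusted p under 0.05 were all higher in KO, where 6.28% of all genes were, and 23.3% of all genes had both KO values above both WT values. The 10 T lineage markers, 5 higher and 5 lower, summed to 2317 and 1931 RPKM (reads scaled by transcript length and mapped reads) in KO, against 2228 and 2280 RPKM in WT. The members with the highest RPKM were Rag1, Dntt and Cd8b1 (log2 fold changes of KO over WT -0.20, -0.12 and -0.23, SE 0.20, 0.17 and 0.21), and 2 members of lower RPKM had a larger difference. Rag2, which cuts antigen receptor genes together with Rag1, had 491 and 570 CPM in KO, against 340 and 335 CPM in WT (0.65, SE 0.14, edgeR adjusted p = 0.378). Cd3e, a subunit of the T cell receptor complex, had 226 and 357 CPM in KO, against 120 and 178 CPM in WT (0.97, SE 0.29, adjusted p = 0.470).

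The myeloid markers summed to 36.8 and 38.0 RPKM in KO, against 35.1 and 35.1 RPKM in WT, with 5 of 5 higher and 3 of 5 above WT without overlap. Csf1r had 10.97 and 14.7 CPM in KO, against 8.73 and 8.47 CPM in WT (0.58, SE 0.19, edgeR adjusted p = 0.453), and Cd68 had 3.73 and 5.65 CPM in KO, against 2.88 and 2.74 CPM in WT (0.74, SE 0.29, adjusted p = 0.486). Itgam was at 0.27 and Lyz2, the most abundant of the list, at 0.02. The thymic stroma markers, 6 of 6 higher, summed to 4.24 and 9.01 RPKM in KO, against 4.84 and 4.61 RPKM in WT. Among them Epcam had 10.97 and 17.2 CPM in KO, against 8.12 and 7.84 CPM in WT (0.82, SE 0.23, adjusted p = 0.420), while Krt8 and Krt5 were at 0.20 and 0.07. The erythroid markers, 4 of 4 higher, summed to 128 and 25.7 RPKM in KO, against 41.5 and 37.2 RPKM in WT, so KO replicate 1 alone was high, as Hbb-b1 (0.89) and Alas2 (1.38) were. Slc4a1 had 4.42 and 4.13 CPM in KO, against 1.39 and 3.08 CPM in WT (0.93, SE 0.38, adjusted p = 0.498). Markers of skeletal muscle, a tissue rich in Pfkm and Eno3, summed to 7.63 and 8.88 RPKM in KO, against 5.71 and 7.33 RPKM in WT, with Mylpf at 0.39, Tnnt3 at 0.53 and Pygm at -0.03. The adipose markers Fabp4, Adipoq and Cidec were at 0.50, 0.22 and 0.22, and the B cell markers Cd79b, Ms4a1 and Cd79a at -0.02, -0.04 and -0.04. The part of any of these differences in the results below was not tested.

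The clearest difference among the 10 genes was in Pfkl, the liver phosphofructokinase gene, whose KO level was 57.7% of the WT level. Pfkl (chr10:77449694-77472541 in mm9, minus strand) had 47.4 and 43.1 CPM in KO thymocytes, against 80.3 and 76.7 CPM in WT thymocytes. Both KO values lay below both WT values, by a gap far wider than the distance between mice of a group. The log2 fold change of KO over WT was -0.79 (SE 0.11), and in edgeR's quasi-likelihood test over 13733 genes the p was 1.18e-04, the 3rd smallest among genes lower in KO, with a Benjamini-Hochberg adjusted p of 0.240. The gene therefore did not pass the adjusted threshold of 0.05. The call depended on the tool, with an adjusted p of 4.35e-05 by DESeq2 and 0.518 by limma-voom. It also depended on the libraries: the edgeR adjusted p was 0.0220 without KO replicate 1, where 2.70% of all genes were called, and 0.171 without KO replicate 2, 0.998 without WT replicate 1 and 0.220 without WT replicate 2. In those fits 1 group is a single library with no spread of its own, and the spread between mice is taken from the other group alone. In bulk RNA, fewer cells that express a gene and less of its RNA in each cell cannot be told apart.

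None of the 10 genes passed the adjusted threshold, and in the same edgeR fit 0.00728% of all genes did (1 gene, higher in KO). That fit did not call Hnrnpl itself either (edgeR adjusted p = 0.486). DESeq2 called Pfkl and 0.786% of all genes, and limma-voom called 0% of them. At an unadjusted p under 0.05 by edgeR, 3 of the 10 genes passed, where 9.90% of all genes did. Of these, Pfkl and Pfkp were lower in KO and Hk2 was higher, where 3.61% of all genes were lower and 6.28% were higher at that level. Both KO values lay below both WT values for 4 of the 10 genes (Pfkl, Pfkp, Pkm2 and Ldha) and above for 2 (Hk1 and Hk2), where 21.4% and 23.3% of all genes did so. The median log2 fold change of the 10 genes was -0.10, against 0.01 over all genes tested.

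**Figure D1:**
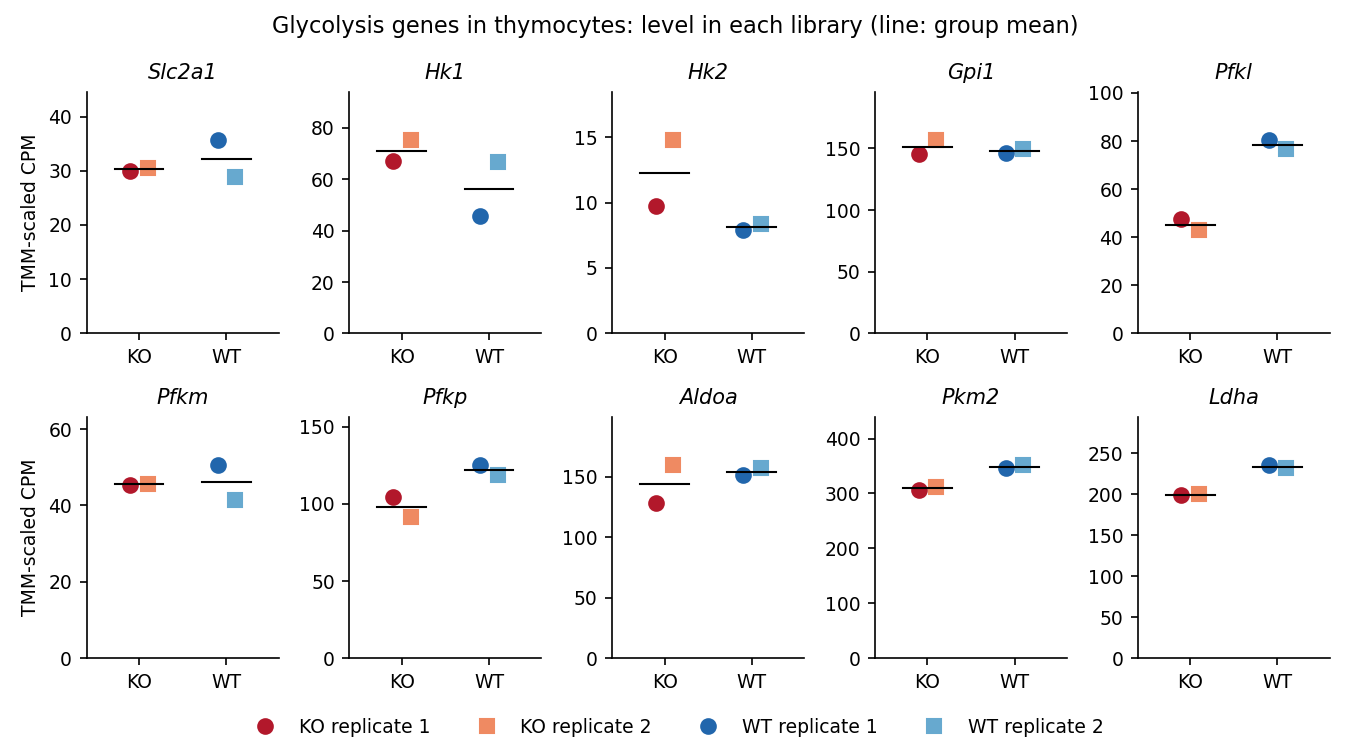
Level of each of the 10 glycolysis genes in each library, in TMM-scaled CPM (linear axes from 0), KO left and WT right; points are mice and the line is the group mean. The gap between groups is wide for Pfkl, with 47.4 and 43.1 CPM in KO against 80.3 and 76.7 CPM in WT, and the groups overlap for Slc2a1, Gpi1, Pfkm and Aldoa.

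At the entry of the pathway, Slc2a1 encodes the glucose transporter GLUT1. It had 29.98 and 30.5 CPM in KO thymocytes, against 35.6 and 28.9 CPM in WT thymocytes (log2 fold change -0.09, SE 0.15). Its KO values lay between the WT values, and the mice of the WT group differed more from each other than the group means did.

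Hexokinases phosphorylate glucose and so keep it in the cell. Hk1 had 67.1 and 75.2 CPM in KO, against 45.5 and 66.9 CPM in WT, with a log2 fold change of 0.34 (SE 0.18, edgeR adjusted p = 0.553). KO replicate 1 was barely above WT replicate 2, and the log2 fold change was 0.09 without WT replicate 1 and 0.65 without WT replicate 2. Hk2 had 9.78 and 14.8 CPM in KO, against 7.91 and 8.39 CPM in WT, with a log2 fold change of 0.59 (SE 0.22, edgeR adjusted p = 0.486). KO replicate 2 stood well above the other 3 libraries, and without it the log2 fold change was 0.26. Summed known junction reads of Hk2, 35 and 27 in KO, against 18 and 29 in WT, gave 1.05 (SE 0.42, edgeR adjusted p = 0.496). Per length, Hk1 was the main hexokinase transcript of the pair: it made up 90.1% and 87.1% of the summed RPKM of Hk1 and Hk2 in KO, against 88.4% and 91.4% in WT, so the balance between them overlapped between the groups.

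Gpi1, which converts glucose phosphate to fructose phosphate, had 145 and 157 CPM in KO, against 146 and 149 CPM in WT. The groups overlapped and the log2 fold change was 0.03 (SE 0.11), the smallest departure from 0 among these genes after Pfkm.

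The other phosphofructokinase genes differed less between the group means. Pfkp (platelet type) had 105 and 91.8 CPM in KO, against 125 and 119 CPM in WT. Both KO mice were below both WT mice, with a log2 fold change of -0.31 (SE 0.12, edgeR adjusted p = 0.486). The log2 fold change was -0.20 with no composition scaling, where the median of all genes was 0.12. Pfkm (muscle type) had 45.4 and 45.6 CPM in KO, against 50.6 and 41.5 CPM in WT. Its KO values lay between the WT values (log2 fold change -0.02, SE 0.13).

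Set side by side per length, the phosphofructokinase genes summed to 21.9 and 20.7 RPKM in KO, against 27.6 and 27.0 RPKM in WT. Pfkl made up 23.3% and 23.0% of that sum in KO, against 30.6% and 31.8% in WT. The share was 23.1 ± 0.2% in KO and 31.2 ± 0.9% in WT (SD, n = 2 each), a difference of -8.08 percentage points with no overlap. In an exact two-sided permutation test the p was 0.333, the smallest that 2 mice against 2 allow. Pfkm made up 28.8% and 31.4% of the sum in KO, against 24.9% and 22.2% in WT, and Pfkp 47.9% and 45.6% in KO, against 44.5% and 45.9% in WT. Pfkm thus ranked above Pfkl in both KO libraries and below it in both WT libraries, while Pfkp kept the first place in all 4 libraries. Pfkm is listed with 3 overlapping transcripts that share reads, and with all its rows summed the Pfkl share differed by -6.81 percentage points. That sum counts shared reads of Pfkm more than once and places Pfkm first. The ranking above thus holds only with the transcript of most reads for each gene.

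**Figure D2:**
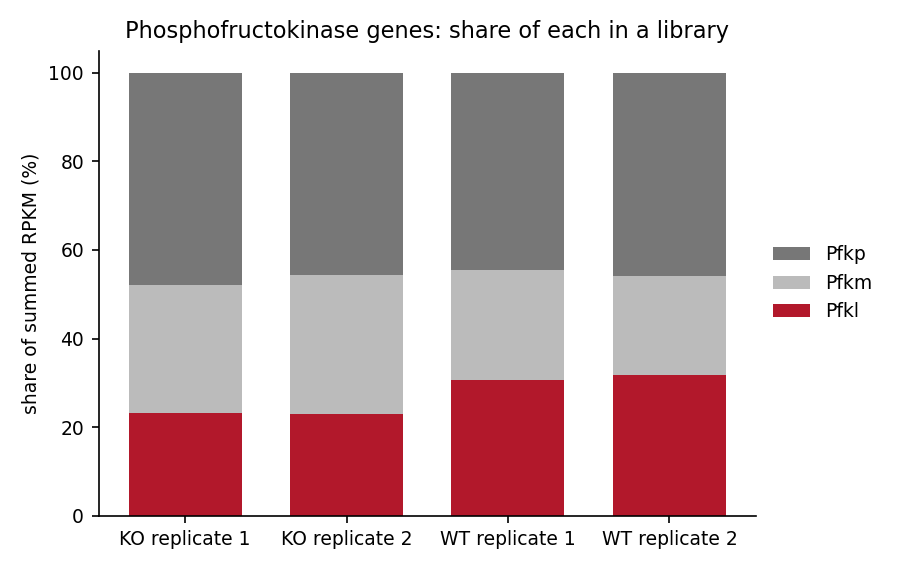
Share of the liver (Pfkl), muscle (Pfkm) and platelet (Pfkp) phosphofructokinase genes in their summed RPKM, in percent, for each library, KO left and WT right. The Pfkl part was 23.3% and 23.0% in KO and 30.6% and 31.8% in WT.

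Pfkl was also read through its exon junctions, which count a separate feature of the same libraries. Its 21 known junctions, which join exons 1 to 22, held 282 and 256 reads in KO, against 627 and 862 reads in WT. As junction CPM, the reads scaled to all junction reads of a library, that is 85.4 and 72.8 in KO, against 132 and 140 in WT. Summed per gene and fitted over 9939 genes, of which 0.0302% were called, the known junctions gave Pfkl a log2 fold change of -0.82 (SE 0.18, edgeR adjusted p = 0.119). At 16 of the 21 junctions both KO values lay below both WT values, and at 0 did both lie above, where 14.7% of 93895 known junctions lay below and 19.3% above. The junctions of a gene share their transcripts and mice, so they are no replicates of one another. Pfkp showed 9 of 21 junctions below and 0 above, Pkm2 4 of 10 below and 0 above, and Hk1 1 of 17 below and 6 above.

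**Figure D3:**
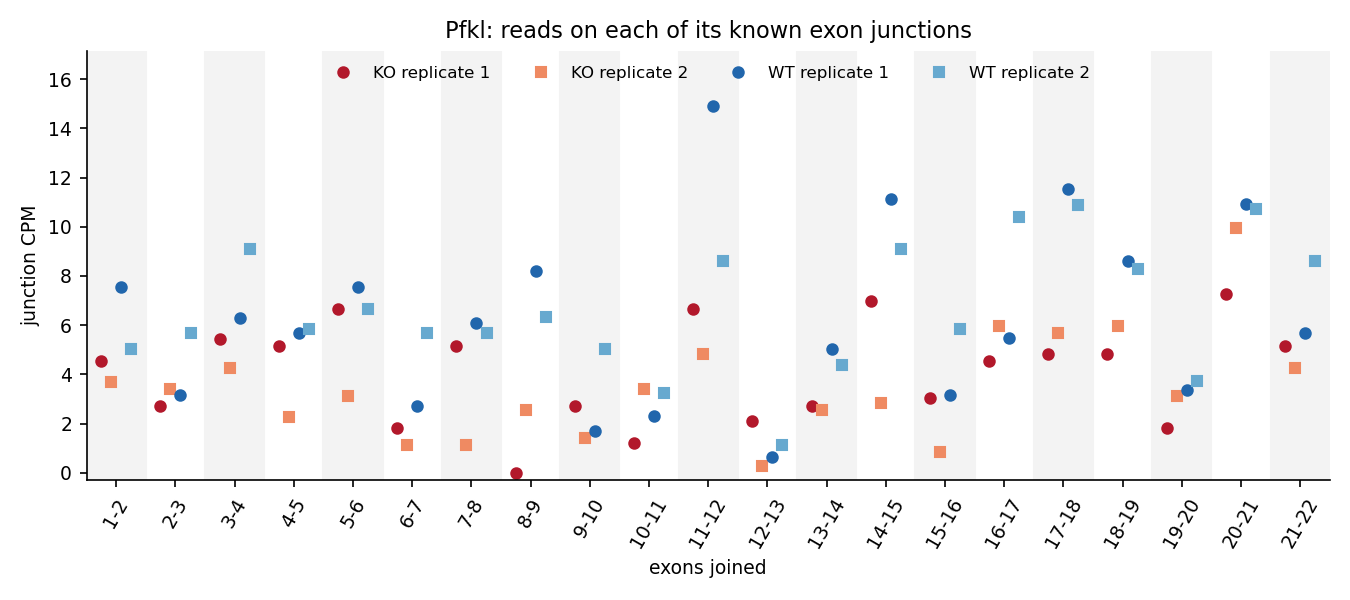
Reads on each of the 21 known Pfkl junctions in junction CPM (reads scaled to all junction reads of the library), from the first exon pair at the left to the last at the right; each point is a library, KO drawn left of WT within a junction. At 16 junctions both KO points lie below both WT points, and KO replicate 1 has no read on the junction of exons 8 and 9.

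The junction of exons 8 and 9 (chr10:77459157-77460269 in mm9) had the smallest usage p within Pfkl. It carried 0 and 9 reads in KO, against 39 and 39 reads in WT. Its usage is its part in the reads of all Pfkl junctions, and the log2 usage difference was -1.16 (unadjusted p of 0.0106, edgeR diffSpliceDGE adjusted p = 0.99999), and without KO replicate 2, which leaves the library with 0 reads as the whole KO group, the adjusted p was 0.371. Across the spliced joint, taken from GENCODE M21 transcripts on GRCm38, the last 30 bases of exon 8 (chr10:77997524-77997553, minus strand) run into the first 30 of exon 9 (chr10:77996383-77996412), which are in capitals. It is shown because reads that cross it are what this junction counts.
Pfkl exons 8 and 9: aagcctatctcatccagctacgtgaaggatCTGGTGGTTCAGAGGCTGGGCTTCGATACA

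After the phosphofructokinase step, Aldoa encodes the aldolase that splits the sugar into triose phosphates. It had 128 and 160 CPM in KO thymocytes, against 151 and 157 CPM in WT thymocytes. KO replicate 1 was the lowest and KO replicate 2 the highest of the 4 libraries, and the log2 fold change was -0.10 (SE 0.14).

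Pkm2, the pyruvate kinase gene, had the highest RPKM of the 10 genes in every library, with 55.8 and 58.5 RPKM in KO, against 61.5 and 66.8 RPKM in WT. It had 306 and 312 CPM in KO, against 346 and 352 CPM in WT. The groups did not overlap and the mice of each group lay close together, but the log2 fold change was only -0.17 (SE 0.12, edgeR adjusted p = 0.611). It was -0.06 with no composition scaling, where the median of all genes was 0.12, and -0.33 with summed known junction reads, which were 642 and 704 junction CPM in KO, against 907 and 738 in WT. Ldha, which turns pyruvate into lactate, followed in level and had the same order of libraries between groups, with 198 and 200 CPM in KO, against 236 and 231 CPM in WT (log2 fold change -0.23, SE 0.11, edgeR adjusted p = 0.527, and -0.11 with no composition scaling). In known junction reads the Ldha groups overlapped, at 371 and 366 junction CPM in KO, against 475 and 346 in WT. On the RPKM scale the order below these was Aldoa, Gpi1 and Pfkp in all 4 libraries, and Hk2 was the lowest in all 4, at 0.71 and 1.10 RPKM in KO, against 0.56 and 0.63 RPKM in WT.

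Of the 10 genes, 4 are listed with more than 1 transcript, and the rows of a gene share most of their reads. The RPKM ratio of KO over WT was 0.93 to 0.94 over the 3 rows of Aldoa, 0.995 to 0.997 over the 3 of Pfkm, 1.26 and 1.29 for the 2 of Hk1 and 0.86 for both of Ldha. The rows of a gene thus gave nearly the same ratio.

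The alternative exons of the pyruvate kinase gene have the same length of 167 bases and are identical at 61.7% of positions, with 64 differences. They are shown because the choice between them sets which enzyme form is made. The sequences come from GENCODE M21 transcripts on GRCm38, on the plus strand, exon 9 at chr9:59675029-59675195 and exon 10 at chr9:59675568-59675734, with capitals at the positions where they differ.
Pkm exon 9: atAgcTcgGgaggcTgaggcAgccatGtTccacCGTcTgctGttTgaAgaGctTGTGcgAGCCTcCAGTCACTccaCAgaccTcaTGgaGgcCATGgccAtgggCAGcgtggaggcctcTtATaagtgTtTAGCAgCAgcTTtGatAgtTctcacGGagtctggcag
Pkm exon 10: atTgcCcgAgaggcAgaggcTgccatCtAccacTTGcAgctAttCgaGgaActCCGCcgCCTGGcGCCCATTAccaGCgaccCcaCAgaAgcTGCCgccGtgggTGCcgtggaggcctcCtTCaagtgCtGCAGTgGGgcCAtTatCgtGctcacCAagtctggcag

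The 1 transcript row of the pyruvate kinase gene (chr9:59504415-59527182 in mm9, plus strand) holds exon 10. The junction tables list 10 known and 45 putative junctions for it, and 0 junctions of any gene end inside the intron that holds exon 9, so the share of exon 9 against exon 10 was not analysed here. What could be read is how many reads fell on the exon 10 junctions and whether both alternative exons were left out. Transcripts that keep exon 9 in place of exon 10 would go unseen. Exon 8 joined exon 10 with 690 and 820 reads in KO, against 1245 and 1437 reads in WT, and exon 10 joined exon 11 with 137 and 187 reads in KO, against 151 and 283 reads in WT. The KO libraries were smaller. As junction CPM the first was 209 and 233 in KO, against 262 and 234 in WT. The second was 41.5 and 53.2 in KO, against 31.7 and 46.0 in WT. The listed junction from exon 8 straight to exon 11, which would leave out both alternative exons, had 0 reads in all 4 libraries. A count of 0 allows up to 3 reads, counting error only. Against the mean of the exon 10 junctions, that is up to 0.726% and 0.596% skipped in KO and 0.430% and 0.349% in WT. The junction of exons 10 and 11 had fewer reads, and against it alone the limits would be wider.

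The exon 10 junctions held 39.0% and 40.7% of the reads on the 10 known Pkm2 junctions in KO (exact 95% intervals 36.9% to 41.1% and 38.8% to 42.7%), against 32.4% and 37.9% in WT (31.0% to 33.8% and 36.5% to 39.4%). Both KO shares were above both WT shares, with means of 39.9 ± 1.2% in KO and 35.1 ± 3.9% in WT (SD, n = 2 each). The exact two-sided permutation p was 0.333, again the smallest possible. The difference of 4.71 percentage points came to 1.92 without WT replicate 1, and the intervals of KO replicate 1 and WT replicate 2 overlapped. WT replicate 1 also had 24.7% of its reads on the junction of exons 7 and 8, against 17.7% and 14.4% in KO and 15.1% in WT replicate 2. In the usage test the junction of exons 8 and 10 had a log2 difference of 0.09 and that of exons 10 and 11 had 0.40, with unadjusted p values of 0.659 and 0.0604 and an edgeR diffSpliceDGE adjusted p of 0.99999 each. Reads on the junction of exons 8 and 10 were 4.39 to 8.25 times those on the junction of exons 10 and 11, so junctions of the same transcript were not counted evenly.

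**Figure D4:**
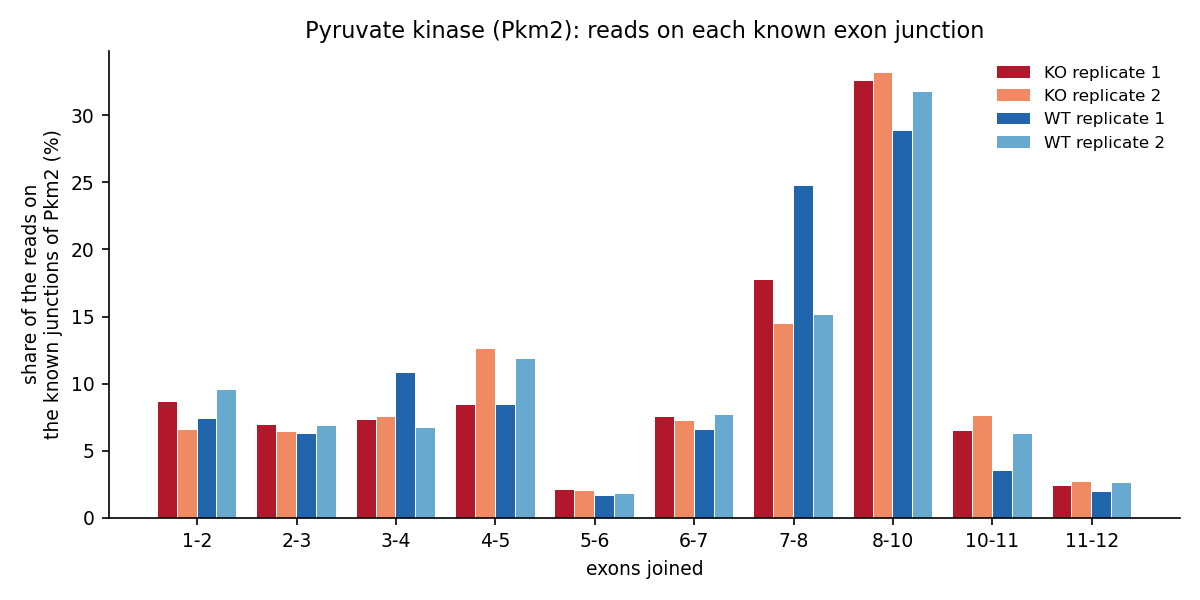
Share of the reads on each of the 10 known Pkm2 junctions in percent of their sum, per library (linear axis from 0), KO bars left of WT bars. The junction of exons 8 and 10 was the largest in every library, and the bar of exons 7 and 8 stands out in WT replicate 1 at 24.7%.

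Across the 10 genes, 134 junctions had at least 10 reads, and 0 passed the adjusted threshold for usage, where 0.00420% of 95139 junctions in all genes did (4 junctions). At an unadjusted p under 0.05 there were 2 of the 134, where 2.55% of all junctions were past that level. The other of these, besides the junction of Pfkl described above, joins exons 3 and 4 of Gpi1 (chr7:35012256-35013947 in mm9). It had 10 and 14 reads in KO, against 92 and 13 reads in WT (log2 usage difference -1.08, unadjusted p of 0.00291, edgeR diffSpliceDGE adjusted p = 0.99999). WT replicate 1 alone was high. Without WT replicate 2, when that library is the whole WT group and the spread comes from KO only, the adjusted p was 0.0225. The remaining genes had smallest unadjusted p values between 0.0544, for the first junction of Ldha (136 and 151 reads in KO, against 504 and 236 in WT), and 0.319, for a junction of Aldoa (67 and 117 reads in KO, against 214 and 187 in WT). Between these lay the smallest p of Pfkm (0.0717), Hk1 (0.0723), Slc2a1 (0.114), Pfkp (0.138) and Hk2 (0.293). Of the 1331 putative junctions, 46 had a read and 0 reached 10 reads, and they held 58 reads, or 0.138% of the junction reads of these genes.

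Of single exons with both inclusion junctions and a skipping junction, 2 in these genes had enough reads for a test, among 3075 exons of which 0% passed the adjusted threshold and 5.63% had an unadjusted p under 0.05. The first is a 69-base exon of Hk1 (chr10:61754723-61754791 in mm9), left out in most junction reads. It was included in 8.57% and 12.0% of junction reads in KO, against 0% and 1.52% in WT. The 2 inclusion junctions had 6 reads together in each KO library, against 0 and 2 reads in WT, and the skipping junction had 32 and 22 reads in KO, against 41 and 65 in WT. Both KO values were above both WT values, as for 22.1% of exons tested. The log2 difference was 3.32 (SE 1.54, unadjusted p of 0.0380, edgeR adjusted p = 0.727). Counting error is wide here, and the 2 inclusion junctions were uneven. In KO replicate 1 the upstream junction had 1 read and the downstream junction 5, which gave 3.03% (exact 95% interval 0.077% to 15.8%) and 13.5% (4.5% to 28.8%). In KO replicate 2 the split was the reverse, 5 upstream and 1 downstream, which gave 18.5% (6.3% to 38.1%) and 4.35% (0.11% to 21.9%). The 0 reads in WT replicate 1 allow a share of up to 7.32% at either junction.

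The sequence of this Hk1 exon (GENCODE M21 on GRCm38, chr10:62291975-62292043, minus strand) was matched by its length and those of its neighbouring introns, and is shown because hnRNP L is known to bind CA-rich RNA. Capitals mark matches to ACAC, searched on the transcript strand only.
Hk1 69-base exon: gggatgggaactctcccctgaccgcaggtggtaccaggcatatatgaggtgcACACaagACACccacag
The exon holds 2 such matches, and 21.7% of 1348 annotated exons of that length hold at least 1. The share that holds 2 was not counted, and binding of hnRNP L to this exon was not tested. Neither of the alternative Pkm exons holds ACAC, against 43.1% of 900 annotated exons of 167 bases.

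The second tested exon, of 153 bases in Aldoa (chr7:133941488-133941640 in mm9), was included in 2.13% and 1.64% of junction reads in KO, against 2.70% and 6.33% in WT. Those shares rest on 5 inclusion reads, counted as the mean of the 2 junctions and summed over the libraries, and the test gave a log2 difference of -1.0 (SE 1.52, edgeR adjusted p = 0.963).

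The other enzymes of the pathway put the 10 genes in context. Of 28 glycolytic genes in the tables, these 10 included, 23 were tested, with 9 higher and 14 lower in KO and 0 past the adjusted threshold. From glucose phosphorylation to aldolase, the median log2 fold change over 11 genes was 0.03, with 6 higher and 5 lower. From the triose phosphates to lactate it was -0.30 over 12 genes, with 3 higher and 9 lower, and 7 of the 12 had both KO values below both WT values, where 21.4% of all genes did, among them Gapdh, Pgk1 and Pgam1, whose transcript reads are uncertain. Eno3, an enolase gene, had 8.47 and 6.69 CPM in KO, against 13.6 and 11.2 CPM in WT (log2 fold change -0.71, SE 0.20, edgeR adjusted p = 0.425). Ldhb, the other main lactate dehydrogenase gene, had 176 and 104 CPM in KO, against 204 and 197 CPM in WT (-0.52, SE 0.25, adjusted p = 0.527), so KO replicate 2 alone was far below. Adpgk, a glucokinase that uses ADP, had 28.6 and 39.5 CPM in KO, against 23.1 and 23.8 CPM in WT (0.54, SE 0.18, adjusted p = 0.453).

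Part of the lower pathway was thinly covered. Gapdh had 60 transcript reads but 9268 known junction reads over the 4 libraries, and Pgam1 had 36 and 201. Pgk1 (1328 and 2759) and Eno1 (5453 and 5175) had about as many junction reads as transcript reads or more, while for the 10 genes junction reads were 7.45% to 33.3% of transcript reads. Transcript reads were kept only from a mapping quality of 10, per the file headers, and Gapdh, Pgam1 and Pgk1 are known to have near-identical copies in the genome, so their transcript values are uncertain; the cause of the gap was not tested. Gapdh had 477 and 563 junction CPM in KO, against 480 and 558 in WT, and Pgam1 8.48 and 13.1 in KO, against 13.2 and 10.4 in WT, and both overlapped between the groups, while in scaled transcript reads both KO values lay below both WT values. Pgk1 had 131 and 137 junction CPM in KO, against 190 and 153 in WT. Its KO values were thus below its WT values in both kinds of read. Eno1 had 281 and 380 junction CPM in KO, against 226 and 299 in WT. For Eno1, KO replicate 1 lay between the WT values and KO replicate 2 above them.

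Around the pathway, 0 genes of the lists passed the adjusted threshold, and of these lists the genes given with an adjusted p had an unadjusted p under 0.05. Among transport genes, Slc16a1, a lactate carrier, and Bsg, its partner protein, had the highest RPKM, with log2 fold changes of 0.16 (SE 0.14) and 0.11 (SE 0.12), while Slc2a4, the insulin-responsive glucose transporter, had 3.69 and 4.49 CPM in KO, against 2.54 and 2.55 CPM in WT (0.69, SE 0.26, adjusted p = 0.486). The enzymes that make and break down the sugar bisphosphate which activates phosphofructokinase, Pfkfb2, Pfkfb3 and Pfkfb4, had 0.13, -0.12 and 0.20 on the log2 scale (SE 0.13, 0.14 and 0.15). Of 15 regulators and sensors, 10 were lower and 5 higher, with 7 below and 1 above without overlap, where 21.4% and 23.3% of all genes were. Egln3 and Egln1 encode prolyl hydroxylases that mark HIF factors for degradation. Egln3 had 40.2 and 37.3 CPM in KO, against 59.7 and 55.3 CPM in WT (-0.57, SE 0.11, edgeR adjusted p = 0.364), and Egln1 had 111 and 86.1 CPM in KO, against 148 and 153 CPM in WT (-0.61, SE 0.15, adjusted p = 0.415). Txnip, an inhibitor of glucose uptake, had 821 and 506 CPM in KO, against 1082 and 939 CPM in WT (-0.61, SE 0.23, adjusted p = 0.486). Hif1a and Mlx were at -0.20 (SE 0.13) and -0.27 (SE 0.14), and Arnt, the partner of HIF factors, at 0.35 (SE 0.13, adjusted p = 0.486).

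Beyond pyruvate, the list of 14 genes for its entry into mitochondria had 4 higher and 10 lower, with a median of -0.08 on the log2 scale. Pdha1, Pdhb and Dld, subunits of pyruvate dehydrogenase, had the highest RPKM, with log2 fold changes of -0.27 (SE 0.13), -0.21 (SE 0.12) and 0.11 (SE 0.11). Pdk2, a kinase that inhibits that enzyme, had 8.40 and 10.3 CPM in KO, against 5.83 and 7.06 CPM in WT (0.54, SE 0.21, edgeR adjusted p = 0.486). In the pentose phosphate pathway, which draws on glucose phosphate, 7 of 8 genes were lower, with a median of -0.09, and Taldo1, Tkt and Rpe had -0.26 (SE 0.13), -0.14 (SE 0.15) and -0.08 (SE 0.12). Of 7 splicing regulators known to act on the pyruvate kinase exons, Hnrnpa2b1 had 726 and 779 CPM in KO, against 563 and 591 CPM in WT (0.38, SE 0.14, adjusted p = 0.475). Ptbp1 had 292 and 328 CPM in KO, against 254 and 317 CPM in WT (0.12, SE 0.15), and Srsf3 was at -0.02 (SE 0.12).

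Patterns over the 4 libraries were also compared by the root-mean-square difference of log2 CPM after centring each gene on its mean. Closest to Pfkl among 6482 genes were the histone gene copies Hist1h2ao_dup1 (0.032) and Hist1h2ag (0.056) and the gene Gm514 (0.053). Hist1h2ao_dup1 had 61.7 and 55.7 CPM in KO, against 101 and 103 CPM in WT. Gm514 had only 0.29 and 0.29 CPM in KO, against 0.54 and 0.53 CPM in WT (log2 fold change -0.87, SE 0.50), so its pattern rests on few reads. Closest to Pkm2 among 13382 genes were Eif1a, a translation initiation factor gene, at 0.0065, Golt1b at 0.0069 and Sos2, a Ras exchange factor gene, at 0.0074. With 4 libraries many genes have similar patterns, and near-identical histone genes may share reads.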

How the data were processed

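RNA of total thymocytes from 2 KO and 2 WT mice was depleted of ribosomal RNA and sequenced on SOLiD slides, per the labels' protocols. The authors deposited raw read counts and RPKM per RefSeq transcript, and raw counts per exon junction. Per the file headers, only primary alignments were counted, from a mapping quality of 10; per the submitters' processing notes the build is mm9. The sources used here give neither the aligner nor the handling of strand. The transcript with most reads stood for each gene. The test of counts was the robust quasi-likelihood fit of edgeR 4.0.16 (R 4.3.3), after filterByExpr and with TMM scaling, with Benjamini-Hochberg adjustment over all features and a threshold of 0.05. Junctions needed 10 reads and were tested for usage with diffSpliceDGE. Exons needed 10 reads in every library and 5 each for inclusion and skipping. DESeq2 1.42.0 and limma 3.58.1 were alternatives. Shares used an exact permutation test in scipy 1.17.1. Intervals are Clopper-Pearson and cover counting error only. The edgeR scripts were tested on simulated data with gene and junction changes larger than the fold changes given here. Their recovery of smaller changes was not tested. Exons of Pfkl and Gpi1 were numbered by the order of their known junctions. The exons and introns of Pkm2, the Hk1 exon with its neighbouring introns and the introns of Pfkl were matched to GENCODE M21 by length.

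All 10 genes are named, as are other listed genes with an unadjusted p under 0.05 or among the 3 highest RPKM of their list, the junction of each gene with the smallest p, and the 3 genes closest in pattern to Pfkl and Pkm2. The genes and lists were chosen with earlier results of these data known. Replicate numbers come from sample titles that give them no shared litter, batch or day.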

Additional observations from a re-analysis of the deposited data

How the results depend on the processing

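The number of glycolysis genes past the threshold was 0, and 1 (Pfkl) with DESeq2, with no filter on low counts, with a replicate block and without KO replicate 1, so it ranged from 0 to 1 when single libraries were left out; the cause was not tested. In these settings the calls over all genes also grew, with 0.786% called by DESeq2, 0.314% with no filter, 0.845% with the block and 2.70% without KO replicate 1, against 0.00728% in the fit reported. With the replicate block Pfkl had an adjusted p of 0.0102. The deviations of KO and WT replicate 1 from their group means correlated at 0.259 over 13733 genes, but with 2 pairs and no shared origin in the labels the numbers do not establish a pairing. Over 18 settings the log2 fold change of Pfkl lay between -0.87 and -0.68. Reversed directions were small. Pfkm was at 0.035 with upper-quartile scaling, 0.10 with no composition scaling and 0.050 with summed known junction reads, and Gpi1 at -0.063 with the same reads. Aldoa was at 0.022 and Slc2a1 at 0.028 with no composition scaling. With single libraries left out, Pfkm ranged from -0.15 to 0.14, Gpi1 from -0.025 to 0.077, Aldoa from -0.27 to 0.046 and Slc2a1 from -0.23 to 0.070. No composition scaling moved the median of all genes to 0.12.

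Usage calls among these genes were 0 in all settings run but one, and ranged from 0 to 1, the 1 being the Gpi1 junction without WT replicate 2. Single exon calls were 0 in all settings run, and without KO replicate 1 or 2 no exon of these genes could be tested. The Pfkl share differed by -8.69 to -7.46 points when single libraries were left out, by -8.08 with the replicate block and by -6.81 with transcript rows summed. The exon 10 share differed by 1.92 to 7.50 points over the libraries left out. Pfkl junctions with all KO below all WT numbered 16 to 19 there, and glycolysis genes 4 to 6; with 3 libraries such an order is more common, at 28.6% to 32.4% of known junctions and 32.0% to 39.6% of genes. The planned share and pair test of Pkm exons 9 and 10 were not run, since no listed junction reaches exon 9. The summed junction reads, header library sizes, exon 10 share and overlap counts were chosen after seeing the data. With 2 mice a group and 256 to 862 reads on all Pfkl junctions of a library, single junctions rest on few reads.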
